A study of Mus musculus with 3 samples.

Results

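Chaperones are proteins that bind unfolded chains and help them fold, and the 10 genes described here encode the best known of them: the cytosolic HSP70 proteins Hspa8, Hspa1a and Hspa1b, their J-domain partners Dnaja1 and Dnajb1, the HSP90 proteins Hsp90aa1 and Hsp90ab1, the endoplasmic reticulum (ER) HSP70 Hspa5, and the mitochondrial chaperonin pair Hspd1 and Hspe1. The genes were taken by name, as all transcripts of the mRNA table that the GENCODE M21 annotation assigns to these symbols. All 10 had reads, out of 15815 genes in the table. Each of the 10 passed a minimum of 20 reads over the 3 libraries, as did 12691 genes in all.

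RNA was sequenced from apoptotic bodies (ABs), the membrane-bound fragments shed by dying cells, of bone marrow macrophages (BMM-ABs), preosteoclasts (pOC-ABs) and mature osteoclasts (mOC-ABs), with 1 library of each. All cells came from bone marrow of C57BL/6 mice at 11 weeks of age. The BMMs had received M-CSF (50 ng/mL), the macrophage growth factor, and no RANKL, the cytokine that drives osteoclast formation. The pOCs and mOCs were grown from BMMs with RANKL (100 ng/mL) and M-CSF (30 ng/mL), the pOCs for 24 h and the mOCs for at least 72 h. According to the sample labels, alendronate (500 μM), a bisphosphonate drug, was added to every culture for 12 h so that ABs would form. The study's methods name staurosporine instead of alendronate, a longer time of RANKL for mOCs and, for stained cultures, a higher dose of M-CSF beside RANKL. Sample titles name the cells while the series description names ABs, and every library was treated here as one of ABs. No source used here says how many mice each library holds.

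The comparisons were those of the study: pOC-ABs against BMM-ABs (G1), mOC-ABs against BMM-ABs (G2) and mOC-ABs against pOC-ABs (G3). They share libraries pairwise, so their values are not independent. With 1 library per group no difference can be set against a spread between replicates, and no test was run. Each log2 ratio carries a 95% interval that covers counting error only. The mRNA table held 9100082 reads for BMM-ABs, 7387317 for pOC-ABs and 7705592 for mOC-ABs, and levels are given as reads per 1000000 of these (rpm). Where 3 values stand together without a name, they follow this order of libraries. A level of 3 reads corresponds to 0.330, 0.406 and 0.389 rpm. Summed osteoclast markers (10 of 11 with rows in the table, Calcr without one) were 507, 840 and 2628 rpm. Within that list the integrin gene Itgb3 had 6, 3 and 0 reads. The 7 macrophage markers summed to 5774, 2764 and 1795 rpm. No neutrophil or erythroid marker had a row, B cell, T cell and stromal markers summed to at most 6 reads in any library, and endothelial markers to 23, 12 and 47 reads.

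HSP70 proteins bind short hydrophobic stretches and release them on ATP exchange. J-domain proteins deliver clients to HSP70 and start its ATPase, and HSP90 takes over late folding steps of kinases and receptors. In stressed cells heat shock factor 1 (Hsf1) switches on the inducible cytosolic and mitochondrial genes, whereas Hspa5 and other ER chaperones answer to the unfolded protein response. Osteoclasts are large secretory cells that export acid hydrolases and so rely on folding in the ER.

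Promoter motifs differed between the ER gene and several of the others. RefSeq promoters of GRCm38.p6, from 250 bases before to 50 bases after a start, were given for 7 of the 10 genes (not for Hspa8, Hsp90aa1 and Hsp90ab1). Only the 250 bases before the start were searched, for these and for all other genes. The heat shock element, searched as GAANNTTC or TTCNNGAA, forms that read the same on both strands and can overlap, was in 5 of the 7 (Hspa1a, Hspa1b, Dnaja1, Hspd1 and Hspe1), against 14.5% of 27025 genes with a promoter. A gene counted, here and among all genes, if any of its promoters had a match. For Dnaja1 this was 1 of 3 promoters and for Hspd1 1 of 2. The ER stress response element, CCAAT and CCACG set 9 bases apart and searched on both strands, was in 1 of the 7 (Hspa5), against 0.130% of genes. The 26 bases around each match are shown because the motif of Hspa5 differs from that of the 5 genes with a heat shock element. Matched letters are in capitals.
Hspa1a (chr17:34972244-34972269, minus strand): aaactgctgGAAGATTCctggcccca
Hspa1b (chr17:34959326-34959351, minus strand): aaactgctgGAAGATTCctggcccca
Dnaja1 (chr4:40722335-40722360, plus strand): aagcctctaGAAAATTCtacgaggct
Hspd1 (chr1:55088055-55088080, minus strand): ggccTTCCGGAAGGTTCTAGAAcgga
Hspe1 (chr1:55088055-55088080, plus strand): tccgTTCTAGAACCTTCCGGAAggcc
Hspa5 (chr2:34772022-34772047, plus strand): tcaCCAATCGGAGGCCTCCACGacgg
Hspd1 and Hspe1 are neighbours read in opposite directions, and their match is the same stretch of DNA on opposite strands, with 3 overlapping elements in 18 bases. Neither motif was found in the promoters of Dnajb1. A match is a description of letters and not evidence that a factor was bound in these cells.

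The 250 bases upstream of Hspa1b are shown in full, since those of Hspa1a differ from them at only 3 positions and the genes also share most of their coding sequence. Capitals mark the heat shock element, which begins 104 bases before the start.
Hspa1b (chr17:34959239-34959488, minus strand): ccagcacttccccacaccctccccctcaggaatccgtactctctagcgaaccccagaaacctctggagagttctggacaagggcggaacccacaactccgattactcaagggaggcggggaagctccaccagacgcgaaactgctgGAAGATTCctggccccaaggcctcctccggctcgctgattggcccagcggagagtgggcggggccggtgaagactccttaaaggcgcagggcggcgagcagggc

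Together the 10 genes took 0.491% (95% exact binomial interval 0.486 to 0.495) of the mRNA reads of BMM-ABs, 0.514% (0.508 to 0.519) of those of pOC-ABs and 0.580% (0.575 to 0.586) of those of mOC-ABs. Hsp90ab1 alone held 55.0%, 53.8% and 57.5% of these reads, and Hsp90ab1 with Hspa8 held 76.9%, 73.1% and 79.6%. None of the 10 passed the study's 2-fold limit in any comparison, and the FDR that the study paired with it cannot be computed from 1 library per group. Among all 12691 genes, 4.84% were more than 2-fold higher and 6.05% more than 2-fold lower in G1. For G2 the shares were 4.12% and 8.97%, and for G3 3.48% and 6.81%. At a limit of 1.5-fold, chosen after the data were seen, 4 of the 10 were higher (Hsp90aa1, Dnaja1, Hspe1 and Hspa1b) and 1 lower (Hspa5) in G1, where 13.9% and 15.6% of all genes were. In G2 these counts were 1 (Dnaja1) and 1 (Hspa5), against 10.3% and 19.4% of all genes, and in G3 both were 0, against 8.72% and 15.3%. The call of Dnaja1 in G2 was lost when scaled to both tables, from FPKM and over protein-coding transcripts alone, and over these transcripts Dnaja1 was past 1.5-fold lower in G3. Scaled to both tables, 2 genes in place of 4 were higher in G1 (Dnaja1 and Hsp90aa1). The median log2 ratios of the 10 genes in G1, G2 and G3 were 0.28, 0.25 and −0.17, beside −0.021, −0.054 and −0.049 for all genes. Scaling to the reads of the mRNA and lncRNA tables together shifted these medians of all genes to −0.22, −0.15 and 0.05, and the number of the 10 genes above a ratio of 1 in G1 then fell from 8 to 5.

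**Figure D1:**
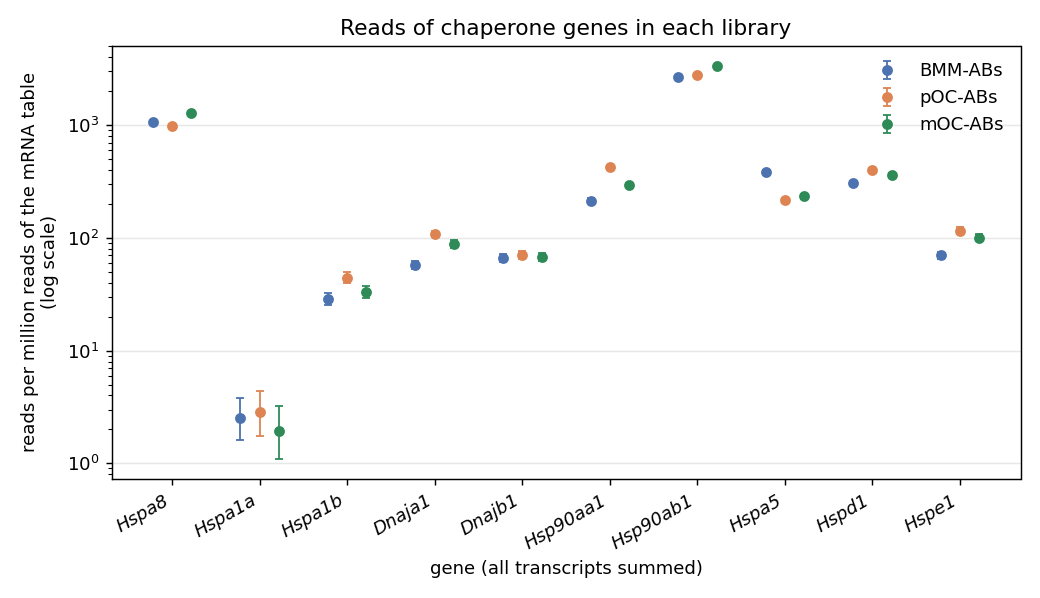
Reads per 1000000 reads of the mRNA table (log axis) for the 10 genes, with a colour for each of the 3 libraries; bars are exact 95% Poisson intervals of the reads. The values are not scaled for length and run from 1.95 to 2.84 for Hspa1a up to 2698 to 3337 for Hsp90ab1. Hspa5 is the gene whose BMM-ABs point lies clearly above its other points.

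Reads and rpm grow with the length of a transcript, so levels of different genes are ordered here per length, as FPKM summed over the transcripts of a gene. Hsp90ab1 had the highest FPKM of the 10 in every library (1121, 1120 and 1367) and ranked 70, 91 and 70 among the 12691 genes. Hspa8 followed with 509, 452 and 588. Hspa5 was the third in BMM-ABs with 149 FPKM and the sixth in pOC-ABs and mOC-ABs with 87.3 and 94.5, behind Hspd1 (169 and 153), Hsp90aa1 (167 and 131) and Hspe1 (149 and 130). Without replicates the order of neighbours as close as Hspd1 and Hsp90aa1 in pOC-ABs cannot be resolved. Dnaja1 (21, 37.6 and 27.7 FPKM) and Dnajb1 (22.2, 23.7 and 22.8 FPKM) came next. At the low end stood the inducible genes Hspa1b (10.2, 15.8 and 11.9 FPKM) and Hspa1a (0.852, 0.958 and 0.656 FPKM), the latter at rank 11998, 11845 and 11975.

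Hspa8 (chr9:40800984-40810087, plus strand), the constitutive cytosolic HSP70, had 9807, 7307 and 9874 reads, or 1078, 989 and 1281 rpm. pOC-ABs were the lowest library and mOC-ABs the highest. On the log2 scale G1 gave −0.12 (−0.17 to −0.08), G2 0.25 (0.21 to 0.29) and G3 0.37 (0.33 to 0.42), the highest G3 ratio of the 10 genes. The leading transcript ENSMUST00000015800 alone had the opposite sign in G1 (0.40, 0.35 to 0.45) and G3 (−0.14, −0.19 to −0.09). The order of libraries for the gene thus depends on ENSMUST00000117557, described below, which had 0 reads in pOC-ABs.

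Hspa1b (chr17:34956436-34959238, minus strand) and Hspa1a (chr17:34969190-34972156, minus strand) encode the stress-inducible HSP70. Hspa1b had 260, 328 and 257 reads, or 28.6, 44.4 and 33.4 rpm. Its level was highest in pOC-ABs, with a log2 ratio of 0.64 (0.40 to 0.88) in G1 and −0.41 (−0.65 to −0.17) in G3, while the interval in G2 (−0.03 to 0.48) included 0. Hspa1a had 23, 21 and 15 reads, and the intervals of all 3 ratios included 0, so no difference was detectable at this depth. The coding sequences of the pair differed at 8 of 1926 aligned bases (99.6% identity), and 58.8% of the 50-base words of Hspa1a also occurred in Hspa1b. The split of reads between Hspa1a and Hspa1b is therefore uncertain.

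Dnaja1 (chr4:40722150-40737149, plus strand), a J-domain protein that activates HSP70, had 522, 801 and 682 reads, or 57.4, 108 and 88.5 rpm. BMM-ABs were the lowest library and pOC-ABs the highest. Its ratio was 1.89-fold in G1 (log2 0.92, 0.76 to 1.08) and 1.54-fold in G2 (log2 0.63, 0.46 to 0.79), and −0.29 (−0.44 to −0.14) on the log2 scale in G3. Over its protein-coding transcripts alone the log2 ratio was 1.09 in G1, past the 2-fold limit, but only 0.28 in G2 and −0.82 in G3, so that mOC-ABs were then closer to BMM-ABs than to pOC-ABs. The gene overlaps its neighbour Smu1 (474, 492 and 527 reads), and the sources do not say whether counting used strand, so reads in the overlap cannot be assigned with certainty.

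Dnajb1 (chr8:83608193-83612653, plus strand), the J-domain partner of inducible HSP70, had 604, 524 and 524 reads, or 66.4, 70.9 and 68.0 rpm. The 3 libraries lay close together, all 3 signs turned when scaled to both tables, and all 3 intervals included 0, from a log2 ratio of 0.10 (−0.08 to 0.27) in G1 to −0.06 (−0.24 to 0.12) in G3.

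Hsp90aa1 (chr12:110690605-110702728, minus strand), the inducible cytosolic HSP90, had 1947, 3117 and 2267 reads, or 214, 422 and 294 rpm. pOC-ABs held the most and BMM-ABs the least. The ratio in G1 was 1.97-fold (log2 0.98, 0.90 to 1.06), just under the limit, and passed it with upper quartile scaling (log2 1.01) or over protein-coding transcripts alone (log2 1.08), while summed FPKM gave a log2 ratio of 0.73. In G2 the log2 ratio was 0.46 (0.37 to 0.55) and in G3 −0.52 (−0.60 to −0.44).

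Hsp90ab1 (chr17:45567775-45573271, minus strand), the constitutive HSP90, had 24554, 20426 and 25716 reads, or 2698, 2765 and 3337 rpm. BMM-ABs and pOC-ABs were nearly level (log2 0.04 in G1, 0.01 to 0.06, with the opposite sign when scaled to both tables or taken from FPKM), and mOC-ABs were highest (log2 0.31, 0.28 to 0.33, in G2). The FPKM of Hsp90ab1 was 11.1, 6.70 and 10.4 times that of Hsp90aa1. Their coding sequences were 76.6% identical and shared no 50-base word.

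Hspa5 (chr2:34771970-34777547, plus strand), the ER HSP70 also called BiP, had 3515, 1589 and 1797 reads, or 386, 215 and 233 rpm. BMM-ABs were the highest library and both RANKL-treated libraries were lower. The level was 1.80-fold lower in G1 (log2 −0.84, −0.93 to −0.76) and 1.66-fold lower in G2 (log2 −0.73, −0.81 to −0.65), and nearly level in G3 (log2 0.12, 0.02 to 0.21). It was the 1 gene of the 10 whose ratios lay under a log2 of −0.5 in G1 and G2, and it passed the 2-fold limit in G1 (log2 −1.04) when scaled to both tables.

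Hspd1 (chr1:55077835-55088243, minus strand) and Hspe1 (chr1:55088132-55091307, plus strand) encode HSP60 and its lid HSP10, which form the mitochondrial folding chamber. Hspd1 had 2794, 2967 and 2816 reads, or 307, 402 and 365 rpm, and Hspe1 had 636, 856 and 774 reads, or 69.9, 116 and 100 rpm. Both were lowest in BMM-ABs and highest in pOC-ABs. For Hspd1 the log2 ratios of G1, G2 and G3 were 0.39 (0.31 to 0.46), 0.25 (0.18 to 0.33) and −0.14 (−0.21 to −0.06). For Hspe1 they were 0.73 (0.58 to 0.88), 0.52 (0.37 to 0.68) and −0.21 (−0.35 to −0.06). The annotated ends of the genes overlap, and reads there carry the uncertainty named for Dnaja1. In ABs, fewer bodies from one kind of cell and less of an RNA per body cannot be told apart, which holds for every ratio given here.

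**Figure D2:**
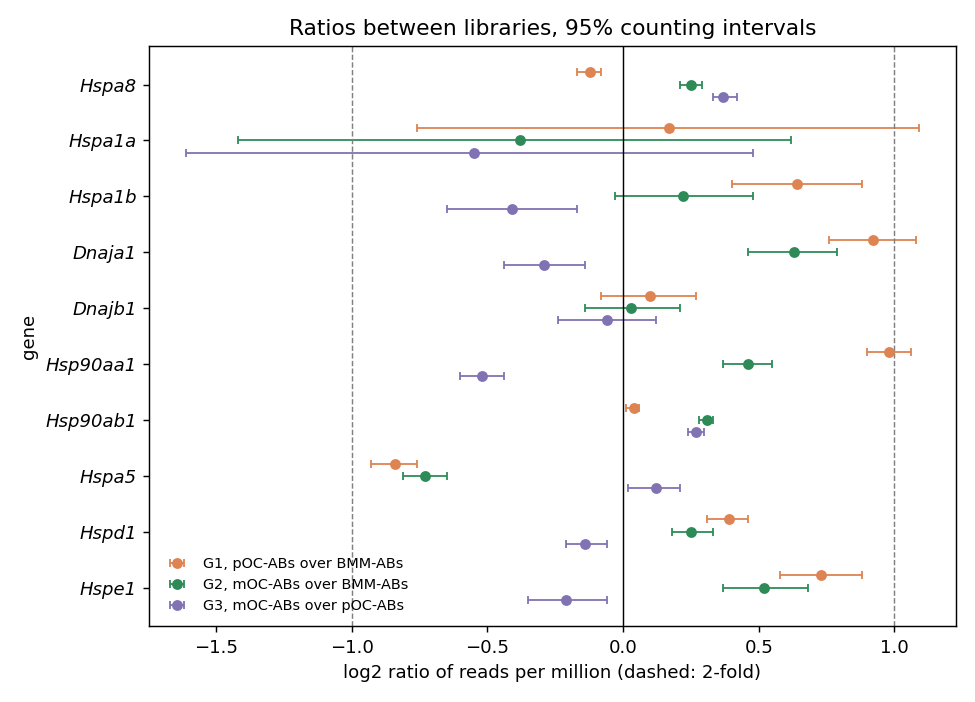
Log2 ratios of rpm between libraries (x axis) for the 10 genes (y axis) in G1, G2 and G3, with 95% counting intervals; dashed lines mark 2-fold. No point lies beyond a dashed line. Hsp90aa1 (0.98) and Dnaja1 (0.92) come nearest in G1, and Hspa5 lies at −0.84 in G1 and −0.73 in G2.

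Gene sums hid differences between transcripts. The 10 genes had 45 transcripts in the table: 23 protein-coding, 14 with a retained intron, 6 processed transcripts without an open reading frame and 2 marked for nonsense-mediated decay. Protein-coding transcripts held 95.2%, 95.9% and 95.6% of the genes' reads, against 81.1%, 77.6% and 80.3% of the whole table. Of the 38 transcripts with at least 20 reads, 8, 7 and 9 were past 2-fold in either direction in G1, G2 and G3, where 36.4%, 38.1% and 35.8% of all 34650 transcripts were. How reads in exons shared by several transcripts were divided among them is not given in the sources used here.

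The transcript with the most reads was the same in every library for 9 of the 10 genes, all but Dnaja1. It was ENSMUST00000087328 for Hspa1a and ENSMUST00000172753 for Hspa1b, the one transcript listed for each. For Dnajb1 it was ENSMUST00000005620 (95.9%, 95% and 93.9% of reads), for Hsp90ab1 ENSMUST00000024739 (98.0%, 99.2% and 98.6%), for Hspd1 ENSMUST00000027123 (96.7%, 99.0% and 99.1%) and for Hspe1 ENSMUST00000075242 (99.1%, 99.2% and 99.9%). These genes were thus represented almost entirely by 1 form.

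Hspa8 was divided between 2 protein-coding forms. ENSMUST00000015800 had 5940, 6362 and 6033 reads, or 60.6%, 87.1% and 61.1% of the gene. ENSMUST00000117557 had 2702, 0 and 2762 reads, or 27.6% and 28.0% of the gene in BMM-ABs and mOC-ABs. The 0 of 7307 reads in pOC-ABs allows a share of up to 0.0411%, that of 3 reads (0.0505% by the exact binomial interval). Against a floor of 3 reads the short form had a level in pOC-ABs at least 731-fold lower than in BMM-ABs and at least 883-fold lower than in mOC-ABs. It lacks 57 coding bases, or 19 codons, at the start of exon 4 (chr9:40802739-40802795, plus strand), which keeps the reading frame. The bases around the junction are printed from the GENCODE M21 transcripts with 30 bases on each side. They hold the only difference between the coding sequences of the forms. The whole transcripts are 2394 and 2019 bases long, so the forms differ outside the coding sequence too. Capitals mark the 57 bases that the short form lacks and, in the pseudogene Gm15459, the base that differs from Hspa8.
ENSMUST00000015800: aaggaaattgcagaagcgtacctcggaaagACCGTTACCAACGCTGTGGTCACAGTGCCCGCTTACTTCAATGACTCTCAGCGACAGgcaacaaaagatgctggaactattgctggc
ENSMUST00000117557: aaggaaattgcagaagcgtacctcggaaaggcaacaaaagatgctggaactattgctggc
Gm15459: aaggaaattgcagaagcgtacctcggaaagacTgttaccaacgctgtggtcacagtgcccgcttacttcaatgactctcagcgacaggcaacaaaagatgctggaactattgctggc
A 50-base word across the short junction occurred in 1 transcript of the genes and pseudogenes compared, ENSMUST00000117557. A count of 0 beside 6362 reads of the longer form is a value of the deposited table, and whether the junction itself was absent from the pOC-ABs reads was not tested.

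Hsp90aa1 was led by ENSMUST00000094361 with 1589, 2473 and 2009 reads (81.6%, 79.3% and 88.6%). Its second protein-coding form, ENSMUST00000021698, had 86, 449 and 37 reads and was concentrated in pOC-ABs, with a log2 ratio of 2.69 (2.35 to 3.04) in G1 and −3.66 (−4.19 to −3.18) in G3. The leading form alone had a log2 ratio of 0.94 (0.85 to 1.03) in G1, close to that of the whole gene.

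Dnaja1 was shared between the protein-coding ENSMUST00000030118 (245, 457 and 273 reads) and the processed transcript ENSMUST00000129204 (219, 300 and 380 reads). The first led in BMM-ABs and pOC-ABs with 46.9% and 57.1% of reads, and the second led in mOC-ABs with 55.7%. Protein-coding transcripts therefore held 51.5%, 58.2% and 40.5% of the Dnaja1 reads, the lowest share among the 10 genes.

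Hspa5 was led by ENSMUST00000100171 with 2949, 1259 and 1541 reads (83.9%, 79.2% and 85.8%). The other coding form, ENSMUST00000028222, had 519, 285 and 212 reads, so both forms were highest in BMM-ABs. Among minor forms, the retained-intron transcript ENSMUST00000145205 of Hsp90ab1 had 391, 84 and 275 reads and was lowest in pOC-ABs (log2 −1.92 in G1, −2.28 to −1.57). ENSMUST00000127861 of Hspd1 had 91, 30 and 26 reads. These minor forms were named after their values were seen.

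**Figure D3:**
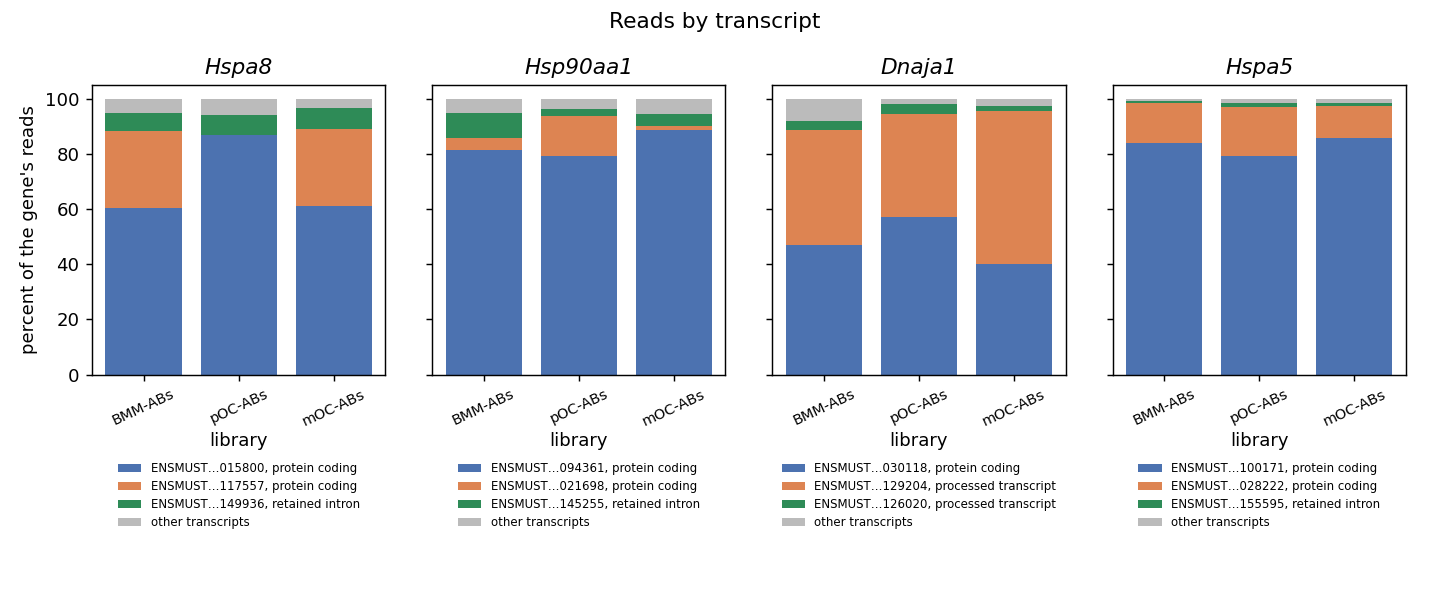
Percent of the reads of Hspa8, Hsp90aa1, Dnaja1 and Hspa5 on their 3 leading transcripts and on the others, in each library; transcripts are named by the last digits of their Ensembl identifier. The second Hspa8 form (27.6% and 28.0%) is missing in pOC-ABs, and the processed transcript of Dnaja1 reaches 55.7% in mOC-ABs.

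Of the 10 genes, 6 have processed pseudogenes, intronless copies elsewhere in the genome, that share 50-base words with them and had rows in the table. These 22 pseudogenes had 17223, 14454 and 16764 reads. By the naming rule 1 of them was chosen, Hspd1-ps3 (99.0% identical to the coding sequence of Hspd1), with 848, 991 and 954 reads. The following were named after their values were seen. Gm15459 (chr5:5781615-5783555, minus strand), 99.7% identical to the coding sequence of Hspa8 over 1941 bases, had 12034, 8694 and 10750 reads, more than Hspa8 itself in every library. Gm8355, another copy of Hspa8, had 2574, 2253 and 2673 reads. Gm12346, a copy of Hsp90aa1, had 829, 1257 and 1058 reads, and Gm15542, a copy of Dnaja1, had 268, 423 and 396.

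Pseudogenes held 60.2%, 60.4% and 58.2% of the reads of Hspa8 and its copies together. The share was 44.7%, 46.7% and 48.4% for Dnaja1, 35.0%, 33.8% and 38.0% for Hsp90aa1, and 23.5%, 25.2% and 25.6% for Hspd1. It was below 1% for Hsp90ab1 and Hspe1, and no such pseudogene was found for Hspa1a, Hspa1b, Dnajb1 and Hspa5. Reads of these copies cannot be told from reads of the gene over the words they share, so the levels of Hspa8, Dnaja1, Hsp90aa1 and Hspd1 are uncertain. Adding the copies left the ratios in G1 close to those of the genes: the log2 ratio was −0.12 (−0.15 to −0.09) for Hspa8, 0.97 (0.85 to 1.09) for Dnaja1, 0.95 (0.89 to 1.02) for Hsp90aa1 and 0.42 (0.36 to 0.49) for Hspd1. For Hspa8 with its copies the ratio fell to 0.18 (0.15 to 0.20) in G2 and 0.29 (0.27 to 0.32) in G3, below the intervals of the gene alone. That of Hsp90aa1 in G3 moved to −0.43 (−0.49 to −0.36), just outside the interval of the gene alone.

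**Figure D4:**
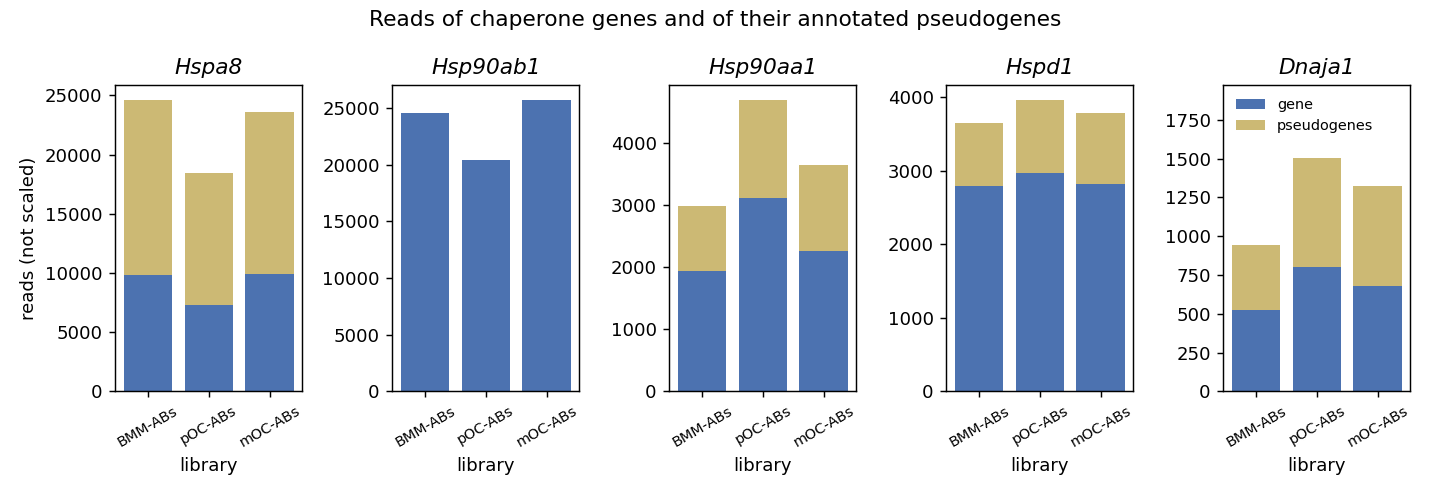
Reads, not scaled for depth, of 5 chaperone genes (blue) and of their annotated pseudogenes that share 50-base words with them (yellow, stacked on top) in each library. The y axis differs between panels. Copies of Hspa8 hold 60.2% of its column in BMM-ABs and those of Hsp90ab1 0.211%.

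The ER stood apart among 107 other chaperone genes grouped by compartment and role, of which 95 had at least 20 reads. Of the 19 ER genes, 17 were lower in G1 and 18 in G2, with median log2 ratios of −0.69 and −0.52. In G3 9 were higher and 10 lower (median −0.01, with its sign changing under other scalings). P4hb, the beta subunit of prolyl 4-hydroxylase and a disulphide isomerase, had the highest FPKM of the ER list in every library. It had 12658, 5078 and 6546 reads, or 1391, 687 and 850 rpm. It was 2.02-fold lower in G1 (log2 −1.02, −1.06 to −0.97), the 1 gene of the ER list past the limit there. That call was lost with upper quartile scaling (log2 −0.99) and from FPKM. Creld2, an ER-resident protein induced by stress, had 374, 185 and 155 reads and was 2.04-fold lower in G2 (log2 −1.03, −1.31 to −0.76), a call lost with size factors or upper quartile scaling (log2 −0.99 in both). Exceptions to the direction were Manf, higher in G1 and G2 (log2 0.36 and 0.25), and Dnajb9, higher in G1 (log2 0.57), both induced by ER stress and named after their values were seen. The ratios of Hspa5, −0.84 in G1 and −0.73 in G2, lay on the same side as the medians of the ER list. The summed macrophage markers were also lower in pOC-ABs and mOC-ABs than in BMM-ABs, as given above, and their part in the ER values was not tested.

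The ER stress response element was in 6 of 15 ER genes with a promoter (Calr, Canx, Creld2, Dnajc3, Hsp90b1 and Pdia6), against 0.130% of genes, and in Hspa5. The heat shock element was in 1 of the 15, Dnajc10, against 14.5% of genes. The 26 bases of Creld2, past the limit in G2 under some scalings, and of Hsp90b1, the ER HSP90, are shown. Capitals mark the match to the ER element. The match in Creld2 and the second in Hsp90b1 read on the opposite strand.
Creld2 (chr15:88819517-88819542, plus strand): tctCGTGGCGAGCCTCAATTGGtcca
Hsp90b1 (chr10:86705634-86705659, minus strand): agcCCAATCGCAAGGAGCCACGcttc
Hsp90b1 (chr10:86705529-86705554, minus strand): gtgCGTGGTGAGGCACGATTGGtgag
Reads of Hsp90b1 were 2931, 1790 and 1735 (log2 −0.41, −0.50 to −0.33, in G1 and −0.52, −0.60 to −0.43, in G2), lower in both as Hspa5 was. Of the ER genes with a promoter but no match to the ER element, Dnajb9 was higher in G1 (log2 0.57). The others were lower: P4hb (−1.02), Dnajc1 (−0.88), Pdia4 (−0.75), Dnajb11 (−0.74), Dnajc10 (−0.69), Pdia3 (−0.47), Ppib (−0.43) and Sdf2l1 (−0.28). Those with a match were at −0.85 (Pdia6), −0.75 (Dnajc3), −0.71 (Creld2), −0.45 (Calr), −0.41 (Hsp90b1) and −0.40 (Canx). The ranges overlapped, and whether the ER element bears on these levels was not tested.

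Mitochondrial genes lay on the other side. Of 11 genes, 10 were higher in G1 and 9 in G2 (median log2 0.36 and 0.16), and 8 were lower in G3 (median −0.20). Scaled to both tables, 8 were higher in G1 and 8 in G2 (median log2 0.16 and 0.06). None passed the 2-fold limit. Hspa9, the mitochondrial HSP70, had 4840, 5030 and 4573 reads, or 532, 681 and 593 rpm, with a log2 ratio of 0.36 (0.30 to 0.41) in G1 and 0.16 (0.10 to 0.22) in G2. This order, pOC-ABs above mOC-ABs above BMM-ABs, was also that of Hspd1 and Hspe1. It was not particular to mitochondrial genes, since the cytosolic Hsp90aa1, Dnaja1 and Hspa1b had it too. Dnajb1 also had it, though its libraries lay within counting error.

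Cytosolic partners varied. In the HSP70 and HSP110 list (6 of 9 genes with enough reads, median log2 0.40, 0.25 and 0.10), the exchange factor Hsph1 had 696, 949 and 1182 reads and was 2.01-fold higher in G2 (log2 1.0, 0.87 to 1.14), a call lost when scaled to both tables (log2 0.90) and from FPKM (log2 0.98). Hspa4, of the highest FPKM there, had 1795, 2108 and 2291 reads. All 8 subunits of the chaperonin CCT, which folds actin and tubulin, were higher in G1 and in G2 (median log2 0.12 and 0.26), but 3 of 8 were higher in G1 (median −0.08) under the scaling to mRNA and lncRNA reads together. Its subunit Cct2, of the highest FPKM, had 4189, 3678 and 3813 reads. Prefoldin, which hands actin and tubulin to CCT, was higher for 6 of 6 subunits in G1 (median log2 0.60, and 5 of 6 higher when scaled to both tables) and 5 of 6 in G2 (median log2 0.34). Pfdn4 passed the limit in G1 at 2.55-fold (59, 122 and 85 reads, log2 1.35, 0.89 to 1.82), and Pfdn5, of the highest FPKM, had 1060, 978 and 978 reads.

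The 16 other J-domain genes divided evenly, with 9 higher and 7 lower in G1 (median log2 0.09, or −0.10 when scaled to both tables) and medians of −0.07 in G2 and −0.11 in G3. Dnajc14 was 2.23-fold lower in G1 (656, 239 and 306 reads) and Dnajb4 2.21-fold lower in G3 (185, 252 and 119 reads), the latter not past the limit over protein-coding transcripts alone (log2 −0.55). Dnajc8, a splicing-related member, had 577, 701 and 745 reads, and its FPKM was the highest of the list in pOC-ABs and mOC-ABs (94.3 and 87.8) but below that of Dnajc7 in BMM-ABs (46.6 against 59.3). Of 22 co-chaperones and exchange factors none passed the limit (median log2 0.17, 0.13 and −0.02, with the sign in G1 and G3 depending on the scaling), and the HSP90 partner Fkbp4 had 3168, 2438 and 3300 reads. Its FPKM of 166, 158 and 197 was the highest of that list in BMM-ABs and mOC-ABs, and in pOC-ABs it was level with that of Cdc37 (159).

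Small heat shock proteins were scarce. Of 10 genes 5 had rows and 3 had at least 20 reads. Hspb11, whose product belongs to the intraflagellar transport machinery, had 71, 139 and 65 reads and was 2.41-fold higher in G1 (log2 1.27, 0.85 to 1.70) and 2.23-fold lower in G3 (log2 −1.16, −1.61 to −0.72). Hspb6 had 87, 114 and 55 reads and was 2.16-fold lower in G3 (log2 −1.11, −1.60 to −0.64), all on processed transcripts, so it drops out over protein-coding transcripts. Among 4 heat shock factor genes with enough reads the one of highest FPKM in every library was Hsbp1, a factor-binding protein (726, 704 and 638 reads). Hsf1, the regulator of the heat shock element and singled out for that role after its values were seen, had 515, 278 and 383 reads (log2 −0.59, −0.80 to −0.38, in G1 and −0.19, −0.38 to 0.01, in G2). In all lists together 2 genes were more than 2-fold higher and 2 lower in G1. These counts were 1 and 2 for G2 and 0 and 4 for G3, to be read beside the shares of all genes given above.

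**Figure D5:**
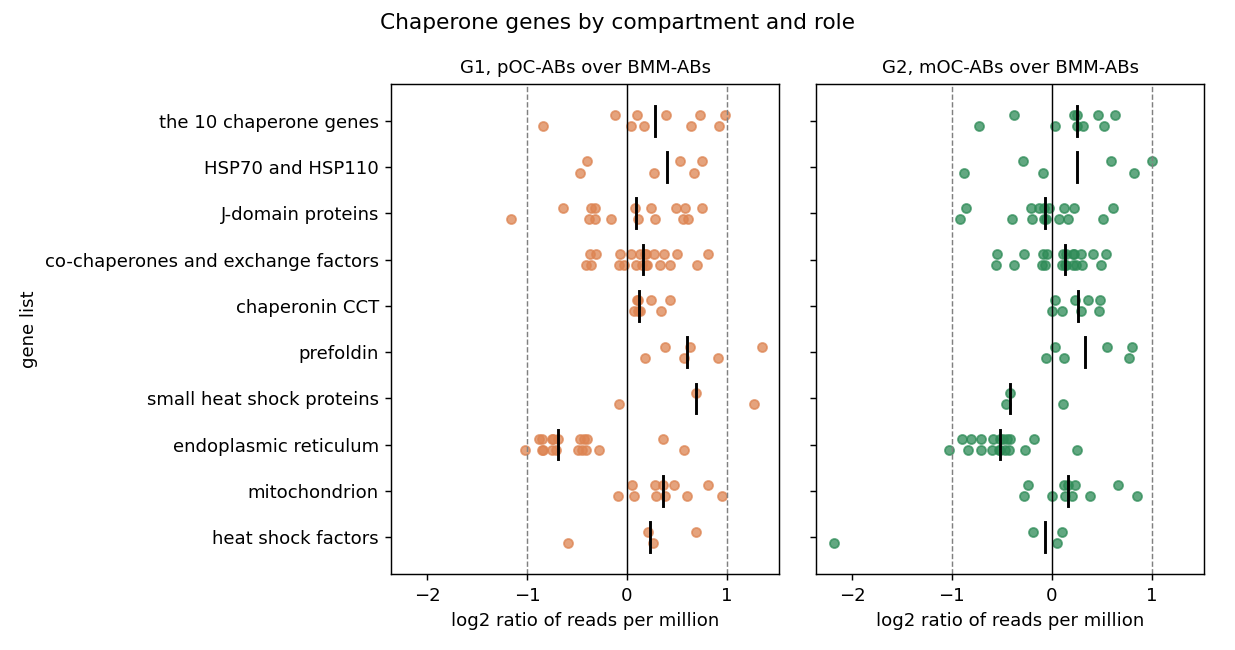
Log2 ratios of rpm in G1 (left) and G2 (right) for the 10 chaperone genes and for 9 lists of other chaperone genes with at least 20 reads; each point is a gene, black bars are medians and dashed lines mark 2-fold. ER genes have medians of −0.69 and −0.52 and mitochondrial genes of 0.36 and 0.16. When scaled to both tables, the mitochondrial medians shrink to 0.16 and 0.06. The CCT and co-chaperone medians in G1 (0.12 and 0.17) turn to −0.08 and −0.03 under that scaling.

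Few other RNAs came from these loci. No circRNA of the series was listed for any of the 10 genes. Annotated lncRNAs overlapped 6 of them with low counts: 15, 27 and 13 reads at Hspa1b, 17, 26 and 11 at Hspa5, 1, 21 and 10 at Hsp90aa1, 21, 38 and 14 over 4 lncRNAs at Dnaja1, 9, 11 and 11 over 3 at Hspa8, and 2, 6 and 1 at Hsp90ab1. The 3 small nucleolar RNAs Snord14c, Snord14d and Snord14e, which lie in introns of Hspa8, had 11, 10 and 11 reads together.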

How the data were processed

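The authors deposited whole-number read counts and FPKM per transcript for mRNAs and lncRNAs, and junction counts and SRPBM (a scaled junction score) for circRNAs, 1 column per library. The submitters' processing notes name FastQC, HISAT2, StringTie and GRCm38. Versions and the counting settings are not given in the sources used here. The study's methods describe paired-end libraries of poly-A RNA, so RNAs without a poly-A tail are measured poorly. Columns are named by hours alone and were matched to libraries by the sample titles and the times of RANKL in the growth protocol. The deposited FPKM of mRNAs are counts per kilobase of transcript and per 1000000 reads of that table.

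Counts were summed per gene symbol (GENCODE M21) and divided by the total of the mRNA table. Log2 ratios use no pseudocount and carry exact binomial 95% intervals (Python 3.11.15, scipy 1.17.1), and scripts were tested on simulated data. The reads carry no molecular identifiers, so intervals and floors cover counting error only. Genes with at least 20 reads over the 3 libraries were compared. The 10 genes and the lists of other chaperones were chosen with earlier results of these data known. Named were all 10 genes, their leading transcripts, listed genes past 2-fold with at least 100 reads, the gene of highest FPKM per list, and pseudogenes named after a member with at least 20 reads. Promoters are from RefSeq (GRCm38.p6), and other sequences and pseudogenes from GENCODE M21. Alternatives were scaling to both tables, the upper quartile or median-of-ratios size factors, summed FPKM (also with a pseudocount of 1), protein-coding transcripts alone, other minimums of reads, pseudogenes added and, after the data were seen, a 1.5-fold limit and pseudogenes that share 50-base words. SRPBM and lncRNA FPKM values were not used.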

Additional observations from a re-analysis of the deposited data

How the results depend on the processing

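No paired analysis was possible because each group has 1 library. Of the 10 genes, none passed 2-fold, except that in G1 1 was higher with upper quartile scaling, 2 over protein-coding transcripts alone and 1 lower when scaled to both tables. At 1.5-fold, added after the data were seen, G1 had 4 higher and 1 lower and G2 1 and 1. The log2 ratio of Hsp90ab1 in G1 (0.04) turned to −0.16 when scaled to both tables and −0.00 from FPKM, with or without a pseudocount of 1. Of 240 alternative log2 ratios of the 10 genes, 197 stayed within the counting interval. Sign turned in 7: these 3 of Hsp90ab1, and, scaled to both tables, Hspa1a in G1 and Dnajb1 in G1, G2 and G3, whose intervals include 0. Other chaperone genes past 2-fold in G1 (2 higher, 2 lower) became 5 higher and 1 lower from FPKM, 7 higher over protein-coding transcripts, 5 higher with no minimum of reads, 6 lower scaled to both tables and 1 lower with upper quartile scaling. In G2 (1 and 2) they became 0 higher and 4 lower scaled to both tables, 0 higher from FPKM, 2 higher over protein-coding transcripts, 3 higher with no minimum, and 1 lower with size factors, upper quartile scaling or at least 100 reads. In G3 (0 higher) they became 1 from FPKM and 2 with no minimum. Genes of the ER list past 2-fold lower in G1 (1) became 5 scaled to both tables and 2 over protein-coding transcripts. They became 0 with upper quartile scaling or FPKM. In G2 (1) they became 2 scaled to both tables and 0 with size factors or upper quartile scaling, and in G3 1 was higher from FPKM. All genes past 2-fold numbered 614 higher and 768 lower in G1. For G2 they were 523 and 1138, and for G3 442 and 864. With no minimum they were 1386 and 1638, 1210 and 2157, and 1098 and 1904, and with at least 100 reads 304 and 463, 274 and 709, and 204 and 435. Scaled to both tables G1 had 442 and 1201, so that 26.9% of calls were higher in place of 44.4%. The cause was not tested. No spread between replicates is known, and Hspa1a, with 15 to 23 reads, is limited by depth.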
